A study of Mus musculus with 12 samples.

Results

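The genes described here are 43 genes whose products copy DNA. They were chosen by name, and each was found once in every table, among 25759 genes listed per library. The polyadenylated RNA came from mouse embryonic stem cells (ESCs) of the HATX3 line, in which doxycycline turns on Xist, the long noncoding RNA that silences the X chromosome from which it is expressed. The wild-type (WT) groups hold the samples numbered 1, 2 and 3. The ΔCdk8 groups (genotype Cdk8-/-) hold the independent clones 8, 11 and 15, derived from HATX3 cells by a small deletion that takes in the start codon of Cdk8, which encodes the kinase of the Mediator complex. Each number and each clone was sequenced uninduced and after Xist expression for 48 h, which gave 12 libraries in 4 groups of 3. All 4 groups carry the inducible Xist system. The line goes back to haploid embryos, so all libraries share that origin. Nothing in the labels says whether the WT numbers were separate cultures, so that p-values may measure technical spread alone. Each ΔCdk8 group holds 1 library per clone, so that clone and culture cannot be told apart. The WT cells are the parental line, which the study describes as polyclonal. Genotype thus cannot be told apart from the editing and cloning of the ΔCdk8 cells.

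DNA replication is prepared in G1, when the origin recognition complex and Cdc6 load the ring-shaped MCM helicase onto DNA with the help of Cdt1. Geminin holds Cdt1 in check once S phase has begun. In S phase Cdc45 and the GINS complex join MCM to make the active helicase, DNA polymerase α-primase lays down primers, and polymerases δ and ε extend them on the sliding clamp PCNA, which replication factor C loads. Replication protein A covers the single strands, the flap endonuclease Fen1 and ligase 1 finish the lagging strand, and ribonucleotide reductase and thymidylate synthase supply nucleotides. Mouse ESCs have a short G1 phase and spend a large part of their cycle in S phase, and many of these genes are known targets of the E2F transcription factors.

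Promoters of 35 of the 43 genes were matched in RefSeq (GRCm38.p6, 250 bases before to 50 bases after a start). E2F-type letters were searched as TTTGGCGC, TTTCGCGC, TTTCCCGC and TTTGCCGC on both strands. They stood in a promoter of 14 of the 35 genes (40.0%) and of 704 of 27025 genes in the whole table (2.60%). CCAAT, on either strand, stood in a promoter of 23 of the 35 genes (65.7%) and of 11096 of the 27025 genes (41.1%). A match is a description of letters and not of a bound factor. In 9 genes a match lay wholly before the start, and 5 of them are shown as examples from different steps of replication: Pola1, the X-linked gene whose RNA fell on Xist induction, Mcm5, Mcm6 and Orc1 from the loading of the helicase, and Rfc3 from the clamp loader. Capitals mark the E2F-type letters. Each sequence is read 5′ to 3′ on the gene's own strand.
Pola1 (GRCm38.p6 chrX:93632260-93632319, minus strand): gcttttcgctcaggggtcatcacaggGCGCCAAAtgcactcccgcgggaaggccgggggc
Mcm5 (GRCm38.p6 chr8:75109330-75109393, plus strand): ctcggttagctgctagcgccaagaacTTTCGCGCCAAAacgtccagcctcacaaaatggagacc
Mcm6 (GRCm38.p6 chr1:128359778-128359841, minus strand): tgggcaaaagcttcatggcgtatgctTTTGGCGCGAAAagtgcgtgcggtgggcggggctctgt
Orc1 (GRCm38.p6 chr4:108579401-108579453, plus strand): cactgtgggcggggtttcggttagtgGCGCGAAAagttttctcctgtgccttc
Rfc3 (GRCm38.p6 chr5:151651209-151651244, minus strand): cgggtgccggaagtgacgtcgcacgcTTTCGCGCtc

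In Mcm5 and in Mcm6 the capitals hold 2 overlapping matches, 1 on each strand. The match lay 138 to 131 bases before the start in Pola1, 153 to 142 bases in Mcm5, 110 to 99 bases in Mcm6, 27 to 20 bases in Orc1 and 10 to 3 bases in Rfc3. In Mcm6 a further TTTGGCGC lay 47 to 40 bases before the start. In Cdt1, Pold1, Lig1, Mcm3 and Pole2 the letters were found only after the start. Rfc3 and Mcm7 held a further match there, from base 1 and base 17 after the start. None of the 4 spellings was found in the windows of Fen1, Pcna, Rfc5 and Mcm2.

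Gene reads numbered 22170087 to 60798578 per library, and 4.77% to 7.59% of them lay on introns. The ESC markers (7 genes, Pou5f1, Sox2 and Nanog among them) summed to 2067 to 3596 TPM (exon reads per base of exon, scaled to the library total) over the 12 libraries, most of it from Pou5f1 and Tdgf1. Single markers ranged more widely. Nanog was at 50.2 to 157 TPM in uninduced WT and 192 to 403 TPM in uninduced ΔCdk8 libraries. In WT, Esrrb rose on induction, from 32.4 to 118 TPM uninduced to 209.7 to 247 TPM induced. Tdgf1 fell there, from 616 to 960 TPM uninduced to 347 to 397 TPM induced. DESeq2 called both and edgeR neither. With each WT number compared with itself, 4 markers rose and 1 fell at an adjusted p under 0.05 (edgeR). Of all genes 23.0% passed there. The 7 fibroblast markers summed to 5.97 to 17.7 TPM in WT and to 19.6 to 32.9 TPM in ΔCdk8 libraries, and Lum was at 0 in the induced WT group. Most of these sums was Thy1, which overlapped between the genotypes (5.12 to 16.1 TPM in WT, 10.6 to 31.2 TPM in ΔCdk8), and the other 6 were at 3.67 TPM or less. The summed levels of primitive endoderm markers (5 genes) ran from 2.04 to 10.2 TPM, of trophoblast markers (5 genes) from 12.6 to 42.3 TPM in WT and 23.5 to 75.5 TPM in ΔCdk8 libraries, and of neural markers (4 genes) from 58.5 to 170.6 TPM. DESeq2 called the trophoblast marker Eomes higher in induced ΔCdk8 cells, and edgeR did not. The part of these differences in the results was not tested. Cdk8 itself was at 64.2 to 74.2 TPM in uninduced WT and 34.4 to 85.3 TPM in uninduced ΔCdk8 libraries. A count over the whole gene does not test a small deletion at its start codon.

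The replication genes were abundant. Their mean TPM over the 12 libraries ran from 24.6 (Gins3, of the GINS complex) to 723 (Pcna), with a median of 113, against a median of 19.3 over the 12131 genes with a mean of at least 1 TPM. The coefficient of variation over the 12 libraries had a median of 13.2% for the members and of 28.0% for those genes. The 2 sets were not matched for level, so this does not show that the members are steadier. Pold1 (41.6%), Cdt1 (38.1%), Pola1 (32.1%), Fen1 (30.3%) and Rfc5 (29.9%) lay above 28.0%. The 6 MCM subunits were the most abundant complex by the median of its subunits, from 264 TPM (Mcm4) to 533 TPM (Mcm5). The origin recognition complex was uneven, from 26.8 TPM (Orc4) to 210 TPM (Orc6). Cdc6 was at 48.4 TPM and Cdt1 at 217 TPM, the GINS subunits, Cdc45 and Mcm10 were at 24.6 to 162 TPM, and the polymerases and primase were at 43.01 TPM (Pola1) to 118 TPM (Prim1). The 3 subunits of replication protein A lay close together, from 151 TPM (Rpa1) to 173 TPM (Rpa2). Among the last steps, Fen1 was at 109 TPM and Lig1 at 255 TPM, and in nucleotide supply Tyms was at 47.0 TPM and Rrm2 at 551 TPM.

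Levels of 3 genes are uncertain, because part of their exon reads also matched elsewhere in the genome. The lowest share of uniquely matched exon reads in a library was 32.9% for Cdt1 (95% Wilson interval 31.2% to 34.6%), 61.2% for Pcna (60.3% to 62.2%) and 90.9% for Pole2 (88.7% to 92.7%). Such intervals cover counting error only. For the other members it was above 95% in every library.

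**Figure D1:**
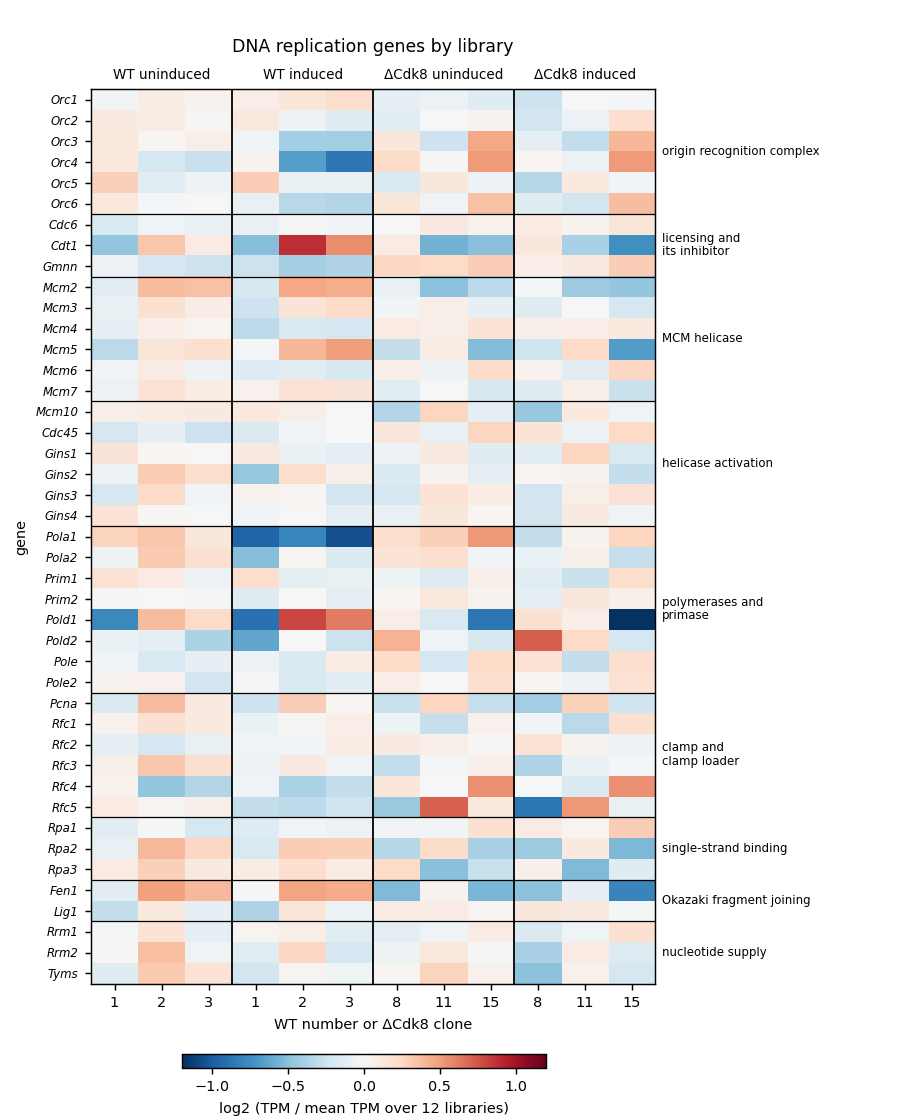
Heat map of the 43 genes (rows, grouped by role) in the 12 libraries (columns, 3 per group). Colour gives the log2 of TPM over the gene's mean TPM in the 12 libraries. Pola1 is lowest in the 3 induced WT libraries, and the strong colours of Pold1, Cdt1 and Rfc5 follow single WT numbers or clones.

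The first question was what Xist expression did to these genes in wild-type cells. The largest change was a fall of Pola1, which encodes the catalytic subunit of DNA polymerase α and lies on the X chromosome (ENSMUSG00000006678, GRCm38, minus strand, 93304767 to 93632155). With each WT number compared with itself, smaller changes of Pola2, Rfc5, Orc6 and Mcm5 also passed an adjusted p of 0.05 and are given further on. The other 42 genes are autosomal. Pola1 was at 51.8, 54.1 and 47.3 TPM in uninduced WT numbers 1, 2 and 3, and at 22.2, 25.0 and 20.7 TPM after induction. In ΔCdk8 clones 8, 11 and 15 it was at 49.8, 52.5 and 61.7 TPM uninduced and at 35.3, 44.3 and 51.6 TPM induced. The induced WT libraries lay below all the others. Every clone was lower induced than uninduced, while the induced and uninduced groups of clones overlapped.

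In WT cells the fitted log2 fold change for Pola1 came to −1.14 ± 0.12 (here and for all log2 fold changes ± gives the standard error), at an adjusted p of 0.00528 (edgeR quasi-likelihood F test, Benjamini-Hochberg adjusted). To be called, a gene needed a fold change of more than 2 and an adjusted p under 0.01. The call was made for 1.16% of all genes tested and for 1 of the 43. With the WT number as a block it was made for 3.95% of genes, and Pola1 was again the 1 member (−1.14 ± 0.077, adjusted p = 0.00100, edgeR). Leaving out any 1 of the 6 WT libraries kept the fold change between −1.12 and −1.24 and lost the call each time, with adjusted p-values from 0.0115 to 0.0394 (edgeR).

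In ΔCdk8 cells none of the 43 genes was called by edgeR (0% of all genes), none by DESeq2, and none had an unadjusted p under 0.05, against 2.64% of all genes. The log2 fold change of Pola1 was −0.29 ± 0.17 (standard error, adjusted p = 1.00, edgeR). With the clone as a block it was −0.30 ± 0.074 (adjusted p = 0.0119, edgeR). The block called 1.40% of all genes and still no member. Pola1 thus fell within each clone by less than the fold change required.

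Whether induction acted differently in the genotypes was tested as an interaction, which for Pola1 was 0.87 on the log2 scale (standard error 0.21, unadjusted p = 0.00137, adjusted p = 0.464, edgeR) without the block and 0.86 ± 0.10 (adjusted p = 0.00197, edgeR) with it. Pola1 was the only member with an unadjusted p under 0.05 in the first of these fits, against 3.88% of all genes. Neither fit called a member, and DESeq2 called none. For Pola1 the difference stayed under a factor of 2 in both fits. The share of all genes called was 0% without the block and 0.998% with it. At an adjusted p under 0.05 with the block and no fold change minimum, 1 member (Pola1) and 6.01% of all genes passed.

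The ratio of induced to uninduced TPM of Pola1 was 0.428, 0.461 and 0.439 in WT numbers 1, 2 and 3, a mean of 0.443 ± 0.017 (SD, n = 3). It was 0.709, 0.843 and 0.836 in clones 8, 11 and 15, a mean of 0.796 ± 0.075 (SD, n = 3). Pola1 kept more of its RNA than most X-linked genes. Its ratio lay above that of 63.1%, 66.0% and 71.4% of the 426 to 428 X-linked genes measured in the WT numbers, whose median ratios were 0.342, 0.328 and 0.272. In the clones it lay above 74.8%, 84.3% and 88.6% of 445 to 449 genes, with medians of 0.569, 0.608 and 0.591.

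Reads across exon junctions of Pola1 gave the same picture as exon reads. Per 1000000 gene reads there were 79.4, 83.8 and 69.9 of them in uninduced and 35.2, 39.2 and 33.3 in induced WT libraries. In the clones there were 73.0, 80.7 and 89.9 uninduced and 52.7, 70.4 and 74.8 induced. Intron reads of Pola1 were few, with 1.28 to 4.87 per 1000000 gene reads in the 12 libraries.

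**Figure D2:**
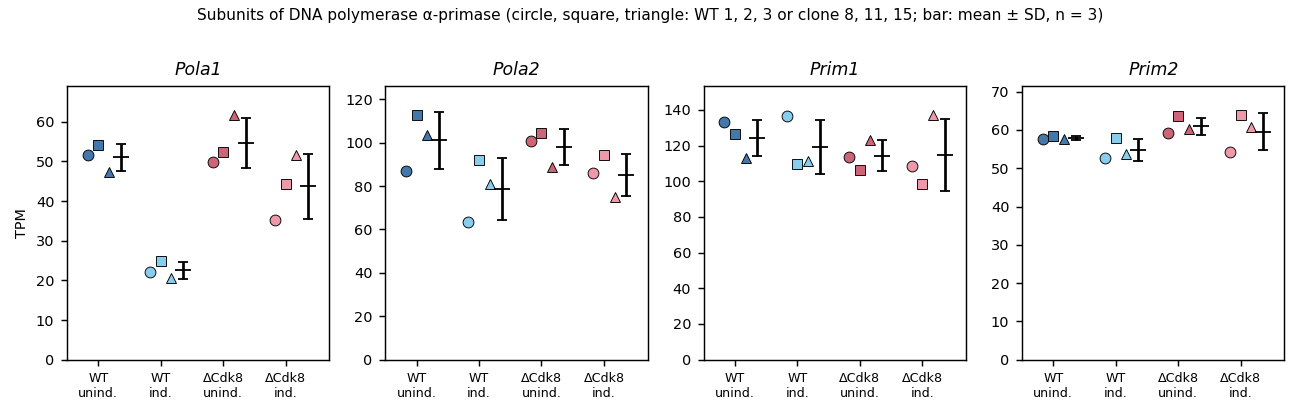
TPM (vertical axis, from 0) of the 4 subunits of DNA polymerase α-primase in the 4 groups. Each point is a library, and the bar gives mean ± SD of 3 libraries. Pola1 drops below 26 TPM in induced WT libraries, whereas Pola2, Prim1 and Prim2 overlap between induced and uninduced WT libraries.

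The partners of Pola1 in the same complex are autosomal. Pola2, its accessory subunit, was at 86.9, 113 and 103 TPM in uninduced and 63.6, 91.9 and 80.8 TPM in induced WT libraries. It was lower after induction in each number, and the groups overlapped. Its log2 fold change was −0.32 ± 0.17 (adjusted p = 0.337, edgeR), or −0.33 ± 0.069 (adjusted p = 0.0238, edgeR) with the block. The primase subunits had log2 fold changes of −0.03 (Prim1) and −0.04 (Prim2), with adjusted p-values of 0.925 and 0.871 (edgeR).

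Few other members moved on induction in WT cells. Without the block 1 member, Pola1, had an adjusted p under 0.05, against 4.56% of all genes, and 3 members had an unadjusted p under 0.05, against 21.2% of all genes. With the block 5 members passed an adjusted p of 0.05, against 23.0% of all genes. Beside Pola1 and Pola2, these were Mcm5, which rose (log2 fold change 0.33 ± 0.063, adjusted p = 0.0173, edgeR), and Rfc5 and Orc6, which fell. The clamp loader subunit Rfc5 was at 161, 154 and 156 TPM uninduced and 123.1, 120.1 and 126.5 TPM induced, with no overlap (−0.32 ± 0.069, adjusted p = 0.0269, edgeR). Orc6 was at 229.6, 206 and 209 TPM uninduced and 197, 167 and 164 TPM induced, again with no overlap (−0.24 ± 0.061, adjusted p = 0.0397, edgeR). Without the block, the largest values that did not pass were those of Cdt1 (0.44 ± 0.37) and Pold1 (0.37 ± 0.48). Their errors were close to the difference for Cdt1 and above it for Pold1.

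In the clones the block gave 2 members with an adjusted p under 0.05, Pola1 and Tyms, against 11.8% of all genes. Tyms, the thymidylate synthase, was at 47.7, 56.6 and 48.8 TPM uninduced and at 33.5, 48.8 and 40.8 TPM induced in clones 8, 11 and 15. It fell in each clone (−0.28 ± 0.077, adjusted p = 0.0195, edgeR), and the groups overlapped. In the fits without the block, which have larger errors, its log2 fold change in WT was −0.16 ± 0.15. The difference between the genotypes there was −0.09 ± 0.28 (adjusted p = 1.00, edgeR).

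The spread of TPM gave a partly different account of induction in WT, sharing Pola1, Rfc5 and Orc6 with the members that passed with the block. In WT cells the induced and uninduced libraries did not overlap for 8 members. Rfc2 was the 1 member higher after induction, where 12.6% of expressed genes were. Orc3, Orc6, Gmnn, Mcm4, Mcm6, Pola1 and Rfc5 were lower, 7 members, where 14.4% of expressed genes were. In the clones no member separated, upward (1.34% of expressed genes) or downward (3.60%). On read counts the median log2 fold change of the 43 genes was −0.02 in WT and 0.02 in ΔCdk8, and that of all genes tested was 0.03 and 0.01. On TPM the members' median log2 ratio was −0.073, −0.082 and −0.028 in WT numbers 1, 2 and 3. For expressed genes it was 0.015, −0.002 and −0.029. In clones 8, 11 and 15 the members' median was −0.068, −0.045 and −0.035, and that of expressed genes −0.044, 0.002 and −0.034.

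Rrm2, a subunit of ribonucleotide reductase that served the study as an autosomal control, passed no test of induction. It was at 556, 707 and 533 TPM in uninduced and 505, 656 and 477 TPM in induced WT libraries, and at 528, 599 and 540.1 TPM in uninduced and 420.4, 589.8 and 494 TPM in induced clones. WT number 2 and clone 11 were the highest of their groups in both states. The log2 fold change on induction was −0.10 ± 0.17 in WT and −0.12 ± 0.22 in ΔCdk8, and the interaction was 0.00 ± 0.30 (adjusted p of 0.799 in WT and 1.00 in the other cases, edgeR). Rrm2 was lower after induction in each of the 6 pairs, with TPM ratios of 0.909, 0.927 and 0.894 in WT numbers 1, 2 and 3 and of 0.796, 0.984 and 0.915 in clones 8, 11 and 15. With the block the log2 fold change was −0.11 ± 0.063 in WT and −0.13 ± 0.074 in ΔCdk8 (adjusted p of 0.268 and 0.281, edgeR).

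The next question was whether cells without Cdk8 carried other levels of these genes, with or without Xist. No member was called in uninduced cells (0% of all genes, edgeR), and DESeq2 called none. In edgeR no gene came under the threshold, as the smallest adjusted p over all genes was 0.101 uninduced and 0.0173 induced. A count of 0 members by edgeR thus says nothing of the members in particular. DESeq2 called genes outside the members in both states (counts at the end). The study also reported genes for uninduced cells at the same thresholds. An unadjusted p under 0.05 was found for 5 members, against 20.4% of all genes. In induced cells no member was called either (0% of all genes, edgeR, and none by DESeq2), and 6 members had an unadjusted p under 0.05, against 25.9% of all genes. With an offset for GC content in the fit these were 11 members and 30.2% of all genes. The clones are the same in both states, so the second comparison is no new sample of clones.

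**Figure D3:**
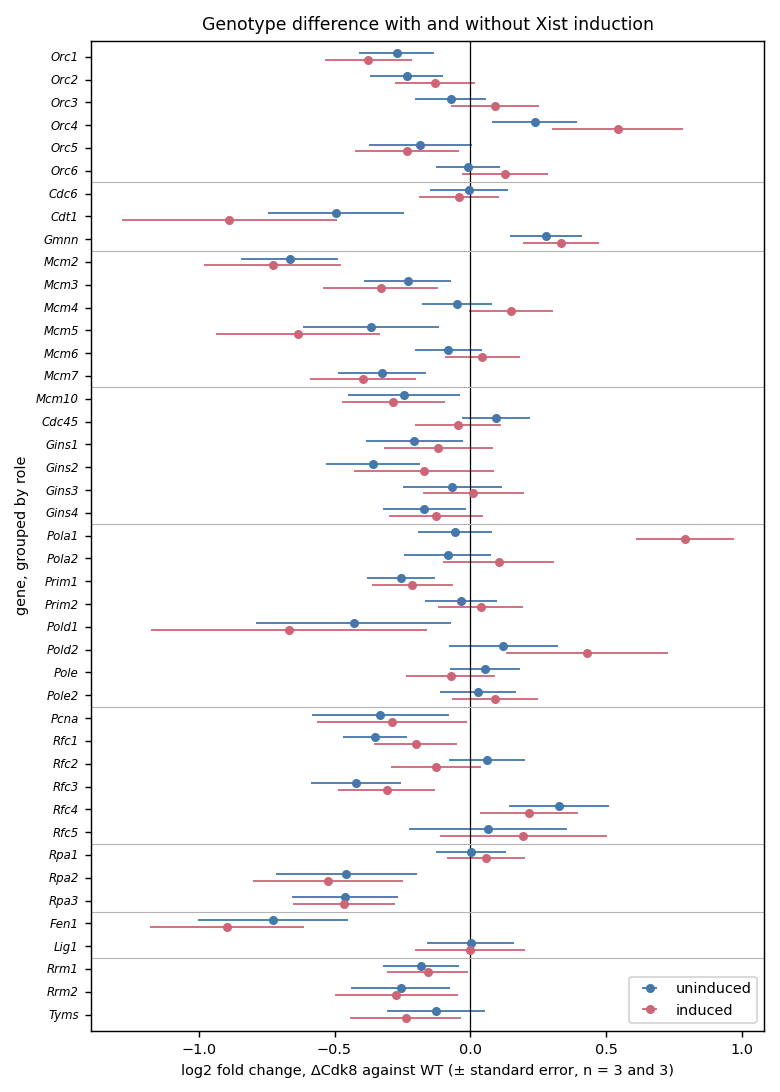
Log2 fold change of ΔCdk8 against WT for the 43 genes (rows, grouped by role) in uninduced and induced cells, from edgeR. Bars give the standard error from 3 against 3 libraries. Most points lie left of 0 by less than 0.5, Fen1 and Mcm2 lie furthest left in uninduced cells, and Pola1 lies at −0.06 in uninduced and 0.79 in induced cells.

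Among the origin recognition genes, Orc1, the largest subunit, was at 89.1, 97.2 and 94.1 TPM in WT and 84.4, 87.2 and 82.8 TPM in ΔCdk8 uninduced libraries, and at 96.8, 100.9 and 106 TPM in WT and 77.1, 90.9 and 89.8 TPM in ΔCdk8 induced libraries. The groups did not overlap in either state, and the fitted log2 fold change was −0.27 ± 0.14 uninduced and −0.38 ± 0.16 induced (adjusted p of 0.296 and 0.19, edgeR). Orc4 was the member of this complex with the largest positive value, 0.54 ± 0.24 in induced cells (adjusted p = 0.201, edgeR). The value was 0.81 without WT number 1 and 0.38 without WT number 3.

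With all libraries, none of the licensing genes had an adjusted p under 0.05 between genotypes in either state (edgeR). Geminin (Gmnn), the inhibitor of Cdt1, was at 129.6, 118 and 115 TPM in uninduced WT and 162, 160.1 and 167 TPM in uninduced ΔCdk8 libraries. After induction it was at 114, 103 and 106 TPM in WT and 143, 147 and 167 TPM in ΔCdk8. The clones lay above WT in both states, with a log2 fold change of 0.28 ± 0.13 uninduced and 0.33 ± 0.14 induced (adjusted p of 0.274 and 0.185, edgeR). Cdt1, which helps to load the helicase, had values of −0.49 ± 0.25 and −0.89 ± 0.40 (adjusted p of 0.294 and 0.203, edgeR), with overlapping groups. Without single libraries they ran from −0.32 to −0.70 uninduced and from −0.59 to −1.21 induced. Cdc6 was at 42.6 to 46.6 TPM in uninduced WT and 48.4 to 52.1 TPM in uninduced ΔCdk8 libraries, which did not overlap, yet its log2 fold change on read counts was −0.00 ± 0.14.

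On read counts with TMM scaling all 6 MCM genes had negative log2 fold changes in uninduced cells, from −0.05 (Mcm4) to −0.67 (Mcm2), and 4 of 6 in induced cells. On TPM 4 of 6 were negative in each state, and Mcm4 (0.11) and Mcm6 (0.08) were positive in uninduced cells. Mcm2 was at 472, 671 and 657 TPM in uninduced WT and 487, 368 and 415 TPM in uninduced ΔCdk8 libraries. After induction it was at 452, 714 and 698 TPM in WT and 508, 384 and 374 TPM in ΔCdk8. WT number 1 lay among the clones in both states, so the groups overlapped. Fitted values were −0.67 ± 0.18 (adjusted p = 0.154, edgeR) uninduced and −0.73 ± 0.25 (adjusted p = 0.133, edgeR) induced. The induced value of Mcm5 was −0.63 ± 0.30 (adjusted p = 0.225, edgeR), and it was −0.97 ± 0.26 (adjusted p = 0.0457, edgeR) without clone 11 and −0.38 ± 0.27 (adjusted p = 0.465, edgeR) without clone 15.

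Mcm2 and Rpa3 are the 2 members on chromosome 6, and clone 11 had low RNA levels along that chromosome. The median log2 TPM difference from WT over the 548 other expressed genes there was −0.493 in clone 11, 0.167 in clone 8 and 0.108 in clone 15. On the 12 other autosomes that hold members, the clone 11 median ran from −0.037 to 0.034. Mcm2 differed from WT by −0.27, −0.67 and −0.61 in clones 8, 11 and 15 on this scale, and the 70 other expressed genes that start within 5 Mb of it by medians of 0.20, −0.42 and 0.21. Rpa3 differed by 0.01, −0.66 and −0.35, and its 22 neighbours by 0.21, −0.66 and −0.16. Rpa3 in clone 11 was thus as low as the genes around it, whereas Mcm2 was lower than its neighbours in all 3 clones. Without clone 11 the log2 fold changes on read counts in uninduced cells were −0.66 ± 0.20 for Mcm2 and −0.39 ± 0.21 for Rpa3.

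With all libraries, no subunit of replication protein A had an adjusted p under 0.05 between genotypes (edgeR), and differences between the subunits were not tested. Rpa1, which carries most of the DNA contacts, had log2 fold changes of 0.00 ± 0.13 uninduced and 0.06 ± 0.14 induced. Rpa2 (−0.46 ± 0.26 and −0.52 ± 0.28) and Rpa3 (−0.46 ± 0.20 and −0.47 ± 0.19) had negative values in both states (adjusted p of 0.334 and 0.259, and of 0.241 and 0.171, edgeR). Without clone 11 the values of Rpa2 were −0.80 ± 0.18 uninduced and −0.84 ± 0.23 induced (adjusted p of 0.0425 and 0.0483, edgeR), short of a factor of 2. Without clone 15 they were −0.29 ± 0.27 and −0.33 ± 0.27 (adjusted p of 0.624 and 0.534, edgeR).

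Fen1, which cuts the flaps of Okazaki fragments, had the largest negative value of all members in both states with all libraries. The rank changed without single libraries. Uninduced and without clone 8, Mcm2 was at −0.75 and Fen1 at −0.60. Induced and without WT number 1, Cdt1 was at −1.21 and Fen1 at −1.06. It was at 99.5, 152 and 142 TPM in uninduced WT and 75.0, 112 and 74.2 TPM in uninduced ΔCdk8 libraries, where clone 11 lay above WT number 1. After induction it was at 107, 151 and 148 TPM in WT and 77.4, 101 and 62.6 TPM in ΔCdk8, with no overlap. Fitted log2 fold changes were −0.73 ± 0.27 (adjusted p = 0.215, edgeR) uninduced and −0.90 ± 0.28 (adjusted p = 0.113, edgeR) induced. Without clone 11 the values were −1.06 ± 0.21 (adjusted p = 0.0376, edgeR) and −1.19 ± 0.25 (adjusted p = 0.0286, edgeR), and without clone 15 they were −0.57 ± 0.30 and −0.68 ± 0.26 (adjusted p of 0.433 and 0.243, edgeR). Lig1, which seals the same fragments, had 0.00 ± 0.16 and −0.00 ± 0.20.

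Of the helicase activation genes 5 of 6 had negative values in each state, from −0.36 (Gins2, uninduced) to 0.10 (Cdc45, uninduced), while on TPM 4 were negative uninduced and 3 induced. Mcm10, which helps the helicase to start, was at −0.24 ± 0.21 (adjusted p = 0.493, edgeR) in uninduced cells. It was at −0.53 ± 0.11 (adjusted p = 0.0379, edgeR) without clone 11, in which it was highest, and at −0.10 ± 0.21 without clone 8 and −0.15 ± 0.23 without clone 15 (adjusted p of 0.842 and 0.776, edgeR). Polymerases and primase had values from −0.43 (Pold1) to 0.12 (Pold2) in uninduced and from −0.67 (Pold1) to 0.79 (Pola1) in induced cells. Pold1 and Pold2 are the catalytic and the second subunit of polymerase δ. The value of Pold1 depended on single libraries. Uninduced it was −0.72 without WT number 1 and −0.18 without clone 15, and induced it was −1.04 and −0.31. The uninduced value of Pold2 ran from −0.05 without clone 8 to 0.28 without clone 15. Among the clamp and clamp loader genes, Rfc4 (0.33 ± 0.18) and Rfc3 (−0.42 ± 0.17) were at the ends in uninduced cells. Pola1 was 0.79 ± 0.18 higher in induced ΔCdk8 than in induced WT cells (adjusted p = 0.067, edgeR), while its uninduced value was −0.06 ± 0.14. Leaving out 1 library gave induced values from 0.71 to 0.91, with adjusted p-values (edgeR) of 0.0447 without clone 11 and of 0.0833 to 0.302 without each of the other 5. All 3 nucleotide supply genes had negative values in both states, from −0.13 (Tyms, uninduced) to −0.27 (Rrm2, induced), with adjusted p-values from 0.422 to 0.692 (edgeR), although Tyms was at 0.003 on TPM in uninduced cells. Without WT number 2 and without clone 11, Tyms uninduced was −0.03 and −0.29 and Rrm2 induced −0.11 and −0.50, the ends of their ranges over single left-out libraries.

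The direction of the set as a whole depended on the scale. On read counts with TMM scaling its median log2 fold change was −0.17 in uninduced and −0.13 in induced cells, against 0.03 for all genes tested in both states, and 11 and 15 of the 43 values were positive. On TPM the median log2 ratio to the WT mean was −0.10, 0.04 and −0.03 in uninduced clones 8, 11 and 15, and the median of the 12131 expressed genes was 0.15, −0.02 and 0.21. On TPM the set thus lay below the other genes in clones 8 and 15 and above them in clone 11, and its own sign differed between clones. After induction the TPM medians were −0.10, 0.05 and 0.06 for the set and 0.11, 0.00 and 0.20 for the expressed genes. On TPM 5 members were higher in uninduced clones with no overlap (Cdc6, Gmnn, Cdc45, Prim2 and Rfc2), where 16.3% of expressed genes were, and 2 were lower (Orc1 and Rfc3), where 7.22% were. In induced cells 5 were higher (Cdc6, Gmnn, Mcm4, Pola1 and Rpa1; 18.3% of expressed genes) and 3 lower (Orc1, Rpa3 and Fen1; 10.6%).

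The clones differed from one another in many of these genes. A test of clones 8, 11 and 15, each with its uninduced and induced library, called 3 members and 25.7% of all genes (more than 2-fold between a pair of clones and an adjusted p under 0.01, edgeR). At an adjusted p under 0.05 with no fold change minimum, 33 members and 72.6% of all genes passed. The largest distance between clones had a median of 0.38 (log2) for the members and 0.69 for all genes tested. The test compares these clones and says nothing of the genotype.

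Rfc5 was at 109.9, 245 and 164 TPM in clones 8, 11 and 15 uninduced and at 82.0, 215 and 141 TPM induced. The order of the clones was the same in both states and their distance was 1.26 on the log2 scale (adjusted p = 1.58e-09, edgeR). In the uninduced WT libraries it had been at 154 to 161 TPM, between the clones. Intron reads made up 13.4% (95% Wilson interval 12.8% to 14.2%) of the Rfc5 reads in uninduced and 20.5% (19.6% to 21.4%) in induced clone 8. In the other 10 libraries the share ran from 3.06% (2.67% to 3.50%) to 9.08% (8.33% to 9.89%). The share over all genes was also high in clone 8, 6.87% uninduced and 7.59% induced, against 4.77% to 7.25% in the other 10 libraries. Pola2 had 22.1% (21.3% to 23.1%) and 26.2% (25.3% to 27.2%) in clone 8, where the other 10 libraries had 9.13% to 22.8%. The part of the library share in that of Rfc5 was not tested.

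Pold1 was at 99.7, 82.6 and 51.7 TPM in clones 8, 11 and 15 uninduced and 107, 99.4 and 41.3 TPM induced, lowest in clone 15 (distance 1.22, adjusted p = 3.28e-08, edgeR). Mcm5 was at 436, 566 and 371 TPM uninduced and 453, 625 and 335 TPM induced, highest in clone 11 (distance 1.00, adjusted p = 9.72e-08, edgeR). Fen1, Rpa2, Pcna and Mcm10 were also highest in clone 11, by distances of 0.92, 0.92, 0.80 and 0.70. Averaged over both states, Pold2 and Cdt1 were highest in clone 8 and lowest in clone 15, by 0.87 and 0.84, while in uninduced cells Cdt1 was lowest in clone 11 (146 TPM, against 153 TPM in clone 15). Mcm6, Prim1, Pole2 and Cdc45 differed by less than 0.10 between clones on read counts with TMM scaling, with adjusted p-values from 0.643 to 0.759 (edgeR). On TPM their clones lay 0.209 (Pole2) to 0.343 (Prim1) apart on the log2 scale, with clone 15 highest and clone 11 lowest for each.

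The WT numbers differed too. The same test called 1 member, Pold1, and 2.08% of all genes, and at an adjusted p under 0.05 it passed 13 members and 18.4% of all genes. Pold1 was at 55.0, 122 and 110.1 TPM in WT numbers 1, 2 and 3 uninduced and 50.6, 164 and 144 TPM induced (distance 1.43, adjusted p = 0.00944, edgeR). Number 1 was the low sample in both states. The call was lost on exon reads alone. Number 1 was also lowest for Cdt1, Mcm2, Fen1, Pcna, Gins2, Mcm5, Rpa2, Lig1 and Pola2, by distances of 0.45 to 1.11, and highest for Orc4 (0.60) and Orc5 (0.38). Rrm2, the remaining one of the 13, was highest in number 2 (0.43).

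**Figure D4:**
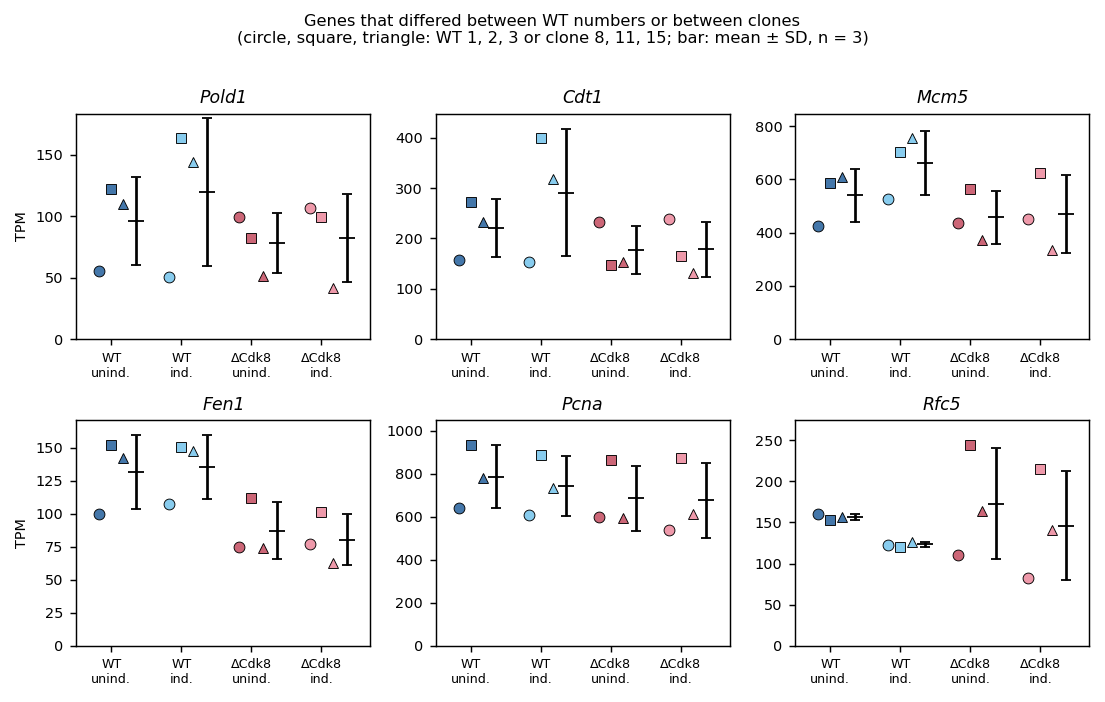
TPM (vertical axis, from 0) of 6 genes that differed between WT numbers or between clones. Each point is a library, with circle, square and triangle for WT 1, 2 and 3 or clones 8, 11 and 15, and the bar is mean ± SD of 3 libraries. The order of the symbols is nearly the same in uninduced and induced cells: WT 1 is low for Pold1 and Fen1, and clone 11 is high for Mcm5, Pcna and Rfc5.

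Some of these differences moved with base composition. The GC content of the longest annotated transcript ran from 34.2% to 61.0% over the members, with a median of 47.3%, against 50.1% for expressed genes. Across the 43 genes the difference between WT number 1 and numbers 2 and 3 had a Pearson correlation of −0.70 with GC content, and across 12125 expressed genes it was −0.30. The difference between clones 15 and 8 had −0.63 across the members and −0.52 across the expressed genes. Pold1, with the highest GC content of the members, lay lowest in both. The difference between clone 11 and clones 8 and 15, which takes in the genes highest in clone 11, had 0.36 across the members and 0.145 across the expressed genes. Genes share libraries and are no replicates, so these values are given as a description. With an offset for GC content in the fit, 1 member was called between clones (Rfc5, distance 1.28, adjusted p = 2.29e-07, edgeR), against 22.0% of all genes. Between WT numbers none was called by edgeR with the offset, against 1.46% of all genes. There 12 members had an adjusted p under 0.05 and 20 an unadjusted p under 0.05, against 15.1% and 34.8% of all genes. The distance of Pold1 became 0.68 between clones and 0.95 between WT numbers, and that of Mcm5 between clones 0.96.

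For the comparisons of the groups the correlation with GC content across the members was −0.19 for genotype in uninduced and −0.35 in induced cells, and 0.44 and 0.29 for induction in WT and in ΔCdk8. With the GC offset and the block, Pola1 was still lower by 1.06 on the log2 scale in WT (log2 fold change −1.06 ± 0.080, adjusted p = 0.00121, edgeR) and by 0.25 in ΔCdk8 cells (−0.25 ± 0.054, adjusted p = 0.0114, edgeR).

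**Figure D5:**
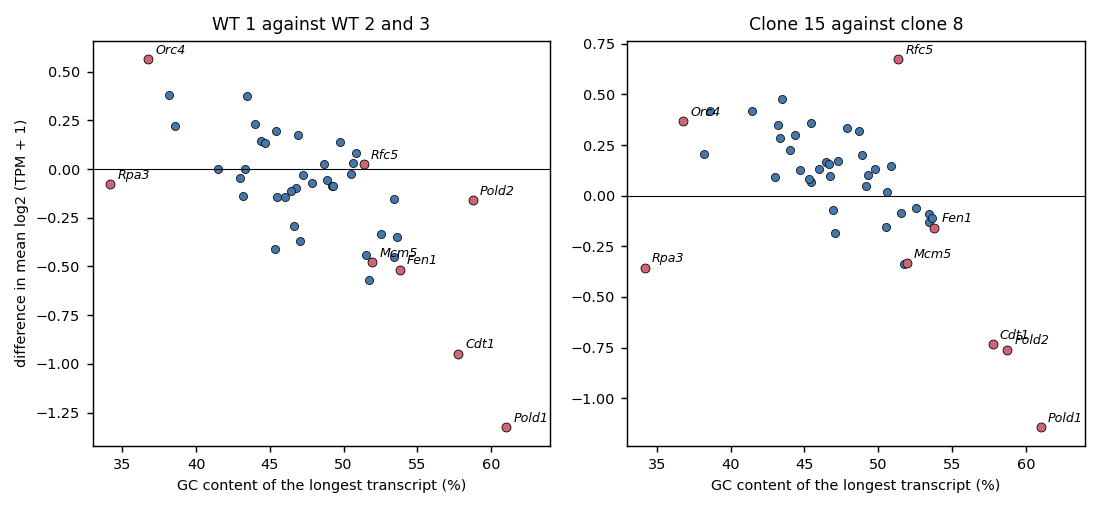
Difference in mean log2 (TPM + 1) between WT 1 and WT 2 and 3 (left) and between clone 15 and clone 8 (right), against the GC content of the longest transcript in percent, for the 43 genes. The named genes are drawn in red. The points fall from left to right, with Pearson r of −0.70 and −0.63, and Pold1 lies at the lower right in both panels.

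Other genes of the pathway were followed in 3 lists. Of 32 fork and firing factors, none was called in the comparisons of genotype or induction by edgeR or DESeq2. The median log2 fold change between genotypes was −0.17 uninduced and −0.23 induced, and 8 and 6 of the 32 had an unadjusted p under 0.05, against 20.4% and 25.9% of all genes (11 of the 32 in induced cells with the GC offset, against 30.2%). The largest values were those of Pold4, a small subunit of polymerase δ, in uninduced cells (0.93 ± 0.40, adjusted p = 0.243, edgeR) and of Recql4, a helicase needed for origin firing, in induced cells (−0.65 ± 0.38, adjusted p = 0.301, edgeR). Between clones 4 of the 32 were called (Chtf18, Rnaseh2c, Ung and Recql4), against 25.7% of all genes, and between WT numbers 1 (Recql4), against 2.08%. With the GC offset the call of Recql4 between WT numbers was lost. Recql4 was at 14.99, 34.1 and 33.2 TPM in uninduced WT numbers 1, 2 and 3, so that number 1 was low as for Pold1.

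Of 28 genes of the E2F, RB and G1/S machinery, none was called by edgeR between genotypes or on induction without the block. Between genotypes 5 had an unadjusted p under 0.05 uninduced and 7 induced, against 20.4% and 25.9% of all genes. Between clones 8 of the 28 were called, against 25.7% of all genes, and between WT numbers 1 (Ccnd1), against 2.08%, or 2 with the GC offset (Ccnd1 and Ccnd3). Cdkn1a, the inhibitor p21 of cyclin-dependent kinases, was at 28.4, 35.1 and 47.4 TPM in uninduced and 87.0, 78.1 and 83.0 TPM in induced WT libraries. In the clones 8, 11 and 15 it was at 1.80, 12.1 and 1.45 TPM uninduced and at 1.48, 16.6 and 2.03 TPM induced. The clones lay below WT in both states. The log2 fold change between genotypes was −2.93 ± 0.87 uninduced and −3.73 ± 0.94 induced, with adjusted p-values of 0.169 and 0.0786 (edgeR). DESeq2 called Cdkn1a in uninduced cells and none of the list in induced cells. On induction in WT Cdkn1a rose (1.23 ± 0.21, adjusted p = 0.0276, edgeR) and Cdkn1c, the related inhibitor p57, fell (−1.16 ± 0.20, adjusted p = 0.0278, edgeR), below the call. With the block both were called (adjusted p of 0.00473 and 0.00636, edgeR), and DESeq2 called them without it, with Ccnd2. Ccnd2, a D-type cyclin, was at 18.3 and 12.3 TPM in clone 11 and at 0.70 to 2.32 TPM in the other clones.

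Of 20 mitosis genes, none was called by edgeR in any comparison, including those between clones and between WT numbers, or by DESeq2 between genotypes and on induction. An unadjusted p under 0.05 was found for 1 of them between genotypes in uninduced and for 4 in induced cells, against 20.4% and 25.9% of all genes. With the GC offset it was found for 8 in induced cells, against 30.2% of all genes. Their median log2 fold change between genotypes was 0.09 uninduced and 0.00 induced. The largest value was that of the cyclin Ccnb2, 0.58 ± 0.19 in uninduced cells (adjusted p = 0.184, edgeR).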

How the data were processed

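Polyadenylated RNA of 12 libraries was sequenced in stranded, single-end reads. The authors mapped them to the Ensembl mouse reference GRCm38 in the CLC Genomics Workbench without trimming adapters and deposited, for each library, raw read counts per gene (total, unique, exon, intron and junction). The deposited TPM values were recomputed here from exon reads and exon length to within a relative difference of 0.000196. RPKM columns, also deposited by the authors, went unused. The deposited fraction columns (unique over total exon reads, intron over total gene reads) were read as shares of reads. The 43 genes and the lists were chosen with earlier results of these data known.

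Total reads per gene were tested with edgeR 4.0.16 under R 4.3.3: TMM, filterByExpr (minimum count 10, minimum total 15), the quasi-likelihood F test and Benjamini-Hochberg adjustment over all genes tested. All 43 genes passed the filter in every fit. p-values are two-sided, and a standard error is the log2 fold change over the square root of F. Genes named in full were Pola1, Rrm2, the members at the ends of each comparison and those past a threshold. A TPM pseudocount of 1 was used for log2 differences by number or clone. An exact permutation test of 3 against 3 libraries cannot go below 0.1 two-sided, so none is given. Shares of reads in single libraries carry 95% Wilson intervals.

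Clones are the same cell line in both states. For WT numbers, deviations from the group mean over 14661 genes correlated by 0.678, 0.591 and 0.554 between uninduced and induced libraries of numbers 1, 2 and 3, so the number or clone was used as a block in an alternative fit. Alternatives were DESeq2 1.42.0, TMM over autosomal genes, other filters, unique or exon reads, all 12 libraries in 1 fit, the block, a GC offset (added after seeing the data) and leaving out each library. The edgeR fits without the GC offset were tested on simulated counts with large changes and less spread than the data showed without the block. The simulated counts held no clone differences beside those tested, and the DESeq2 and GC offset fits were not simulated. TPM and motif counts used Python 3.11.15, numpy 2.4.6 and pandas 2.3.3, figures matplotlib 3.10.9. GC content came from GENCODE transcripts of the same build. Raw reads, DNA copy number and Xist levels were not analysed here.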

Additional observations from a re-analysis of the deposited data

Results flagged for a closer look

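The change of Pola1 on Xist induction differed between the genotypes by the interaction test with the number or clone as a block (log2 difference 0.86 ± 0.10, adjusted p = 0.00197, edgeR). The TPM ratio was lower in 3 of 3 WT numbers (0.428 to 0.461) than in 3 of 3 clones (0.709 to 0.843). Without the block the adjusted p was 0.464. Of the 43 genes, 0 moved one way in every WT number and the other way in every clone. Groups of 3 libraries were too small for a test of single outlying libraries.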

How the results depend on the processing

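Calls of members by genotype and by interaction stayed at 0 under DESeq2, TMM over autosomal genes, other filters, unique or exon reads, all libraries in 1 fit and each left-out library. Over all genes DESeq2 called 386 and 821 genes between genotypes (uninduced and induced), 662 on induction in WT, 36 in ΔCdk8 and 33 for the interaction, where edgeR called 0, 0, 162, 0 and 0. On induction in WT, the 1 called member became 0 without any 1 library (range 0 to 0) and 5 with the replicate block at an adjusted p under 0.05 and no fold change minimum. At that threshold the block gave 2 members in ΔCdk8 and 1 for the interaction. The median log2 fold change of the members on induction in WT was −0.0561 with TMM over autosomal genes and −0.0500 with all 12 libraries in 1 fit. In ΔCdk8 it was −0.00234 with TMM over autosomal genes and −0.00385 with the GC offset and the block. Leaving out 1 library moved these medians between −0.0864 and −0.0140 in WT and between −0.0453 and 0.0996 in ΔCdk8, and that of the uninduced genotype comparison between −0.288 (without clone 11) and −0.101. The uninduced genotype value of Pola1 ran from −0.120 to 0.019. Rrm2 on induction ran from −0.282 to 0.0175 in WT and from −0.343 to 0.0331 in ΔCdk8 without single libraries. Its interaction was −0.0039 with no filter, −0.0083 with a mean of at least 10 counts, −0.0115 with DESeq2, −0.0077 with the block and −0.0401 with the GC offset and the block, and −0.249 to 0.159 without single libraries. Between clones 33 members passed an adjusted p under 0.05 and 1 was called with the GC offset. Between WT numbers these were 13 and 0, with 0 on exon reads and 2 with no filter other than 1 count. The cause was not tested. At the fold change required, the replicate block also called Cdkn1a and Cdkn1c on induction in WT and no other gene of the members or of the 3 pathway lists, and over all genes it moved the calls from 162 to 553 in WT, from 0 to 208 in ΔCdk8 and from 0 to 151 for the interaction. With 3 libraries a group, the standard error of a member's log2 fold change had a median of 0.16 between uninduced genotypes and 0.24 for the interaction.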
